A study of Homo sapiens with 9 samples.

Results

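The genes described here encode subunits of the mitochondrial respiratory chain and of ATP synthase. They were chosen as protein-coding genes whose symbol begins NDUFA, NDUFB, NDUFC, NDUFS or NDUFV with a number, COX4 to COX8, UQCR, ATP5, MT-ND, MT-CO, MT-CYB or MT-ATP, a rule that uses no measured value. It found 99 of the 58735 genes of the count table, 86 in the nucleus and 13 on mitochondrial DNA. RNA was sequenced from HEK293A cells, a human embryonic kidney line, in which the gene for the NF-kB subunit p65 (RELA) was knocked out. The knockout cells were transfected with a plasmid for p65 2CS, with a plasmid for p65 WT or with the vector alone. After 24 h every culture received TNFα at 20 ng/mL for 2 h, so that all 3 groups share the knockout and the TNFα. Each group had 3 libraries, numbered 7 to 9 for p65 2CS, 4 to 6 for p65 WT and 1 to 3 for vector. The meaning of 2CS, the number of knockout clones and the source culture of each library are not stated in the labels, and p65 was supplied by transient transfection. Where libraries share a culture, the p-values reflect technical spread alone.

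The respiratory chain passes electrons from NADH and succinate to oxygen and pumps protons across the inner mitochondrial membrane, and ATP synthase uses the returning protons to make ATP. Complex I takes electrons from NADH, complex III passes them from ubiquinone to cytochrome c, complex IV hands them to oxygen, and complex V is ATP synthase. Complexes I, III, IV and V are mosaics: some hydrophobic parts of each are encoded by mitochondrial DNA and made inside the organelle. The other subunits are encoded in the nucleus and imported. Complex II has nuclear subunits alone and no gene under the rule, so its genes are given with the related pathways.

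RELA itself checked the labels of p65 against vector, but its counts cannot tell which form of p65 a library held. It was at 25747, 26771 and 24036 CPM (the count as a share of the scaled library) with p65 2CS, at 9048, 8037 and 9922 CPM with p65 WT, and at 68.1, 69.0 and 65.9 CPM with vector. The groups did not overlap, and RELA counts with p65 2CS were 2.83-fold those with p65 WT, so the form of p65 and the amount of its transcript cannot be told apart in a comparison of the 2 forms. Library totals lay between 15989601 and 25068515 counts. Of 10 genes taken as markers of HEK293 cells all 10 were tested. Their summed level was 2149 to 2219 CPM with p65 2CS, 2352 to 2422 CPM with p65 WT and 2462 to 2493 CPM with vector. Against vector, 4 of the 10 were lower with p65 2CS (VIM, KRT8, KRT18 and NEFL) and PAX8, under 2 CPM in both groups, was higher. Against p65 WT, 5 were lower and 1 higher with p65 2CS, and with p65 WT against vector 4 were lower and 2 higher. Of all genes tested, 11.4% were called lower and 12.1% higher with p65 2CS than with vector. These shares were 17.9% and 13.4% with p65 2CS against p65 WT, and 12.5% and 16.4% with p65 WT against vector. The lower shares of the markers, 40%, 50% and 40% in that order, were above them. The 2 higher ones with p65 WT were PAX8 and NEFM (log2 folds 4.87 and 2.80), both at low levels, and the part of this shift in the results that follow was not tested. Of 6 leukocyte markers, PTPRC had 1 count in all libraries together and CD3E had 2. The summed level of the 6, nearly all of it NCAM1, was 62.6 to 65.1 CPM with p65 2CS, 60.2 to 62.8 CPM with p65 WT and 71.5 to 72.3 CPM with vector. For 8 fibroblast and endothelial markers the sum was 62.3 to 63.9 CPM with p65 2CS, 94.0 to 96.7 CPM with p65 WT and 56.5 to 62.2 CPM with vector. Of the 5 tested, 3 were called higher and 0 lower with p65 WT than with vector, with a largest log2 fold of 6.57. With p65 2CS, 2 were higher and 0 lower than with vector, and 0 were higher and 3 lower than with p65 WT. These are bulk samples, in which fewer cells of a type and less RNA per cell cannot be told apart.

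The 13 mitochondrial genes, with mitochondrial ribosomal RNA not included, made up 2.94, 3.09 and 3.23% of all counts with p65 2CS, 3.46, 3.11 and 3.18% with p65 WT, and 3.20, 3.23 and 3.34% with vector. The 3 ranges overlap. Counts of the 13 mitochondrial genes were 4.38 to 4.92 times those of the 86 nuclear genes with p65 2CS, 4.49 to 5.03 times with p65 WT and 4.53 to 4.73 times with vector, so this ratio overlapped as well. By CPM the nuclear genes alone did not overlap: their summed level was 6697, 6539 and 6568 CPM with p65 2CS, 7012, 7014 and 7197 CPM with p65 WT, and 6981, 6999 and 6996 CPM with vector. As a share of all counts they made up 0.671, 0.656 and 0.656% with p65 2CS, 0.686, 0.692 and 0.705% with p65 WT, and 0.707, 0.709 and 0.706% with vector. The order of p65 WT and vector thus depends on the scaling. All 3 p65 2CS libraries lay below the other 6 in both measures.

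Compared per length, as TPM (the count divided by gene length, scaled to the same sum in every library), the mitochondrial genes together were far above the nuclear ones. With vector they held a mean of 11.8% of all TPM, against 1.24% for the nuclear genes. MT-ATP8, described further on, was far below the other mitochondrial genes. MT-CO1, the catalytic subunit of complex IV, was at 29656 ± 1090 TPM with p65 2CS, 29726 ± 1490 TPM with p65 WT and 30263 ± 506 TPM with vector (SD, n = 3 each). The highest nuclear member was ATP5F1B, the catalytic beta subunit of ATP synthase, at 1543 ± 32.1, 1499 ± 24.5 and 1534 ± 10.8 TPM in p65 2CS, p65 WT and vector cells. Next among the highest of each complex came COX8A, the smallest subunit of complex IV, at 678, 752 and 748 TPM in the same 3 groups, then NDUFB10, an accessory subunit of complex I, at 646, 623 and 647 TPM. UQCRH, the hinge protein of complex III, led its complex at 429, 451 and 478 TPM. The lowest tested members were NDUFV2 in complex I, UQCRHL in complex III, COX6B2 in complex IV and ATP5S in complex V, with group means of 13.1 TPM at most. Levels per length use the length of all exons joined, which differs from the length of the transcript actually made.

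Of the 86 nuclear genes, 78 had enough counts to be tested and 8 had not. The untested ones were COX4I2, COX6A2, COX7A1, COX7B2 and COX8C, which are tissue-specific or testis forms of complex IV subunits, ATP5MGL, and the read-through genes NDUFC2-KCTD14 and ATP5MF-PTCD1, each with at most 10 counts in any library. Among isoform pairs the general form carried the expression: COX4I1 was at 204, 185 and 193 CPM with p65 2CS, 235, 216 and 223 CPM with p65 WT and 201, 208 and 207 CPM with vector, whereas COX4I2, the lung form induced by low oxygen, had 3 counts in all. COX6B2, the testis form of COX6B1, was at 0.407, 0.477 and 0.474 CPM with p65 2CS, 0.631, 0.570 and 0.742 CPM with p65 WT and 0.640, 0.930 and 0.553 CPM with vector, which rests on 7 to 19 counts per library and passed no test. Of its coding bases 100% are shared with AC020922.1 on the same strand, which had 0 counts, so its level is uncertain. NDUFA4L2, the hypoxia-induced relative of NDUFA4, was likewise low, at 0.618 to 1.42 CPM, and passed no test.

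In p65 2CS cells nuclear respiratory chain transcripts were lower than in vector cells, and the difference was broad and small. Of the 78 tested, 29 were called lower and 1 higher at an adjusted p under 0.05 (edgeR quasi-likelihood test, Benjamini-Hochberg over all 18195 genes tested), where 11.4% of all genes were called lower, 12.1% higher and 23.4% in either direction. The median log2 fold was -0.12, against -0.002 over all genes, and 70 of the 78 had a negative fold. All 3 p65 2CS libraries lay below all 3 vector libraries for 33 of the 78, where 18.1% of all genes did so. For 1 of the 78 they lay above, where 18.5% did. By complex, 10 of 36 in complex I, 3 of 9 in complex III, 8 of 14 in complex IV and 8 of 19 in complex V were called lower.

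Against p65 WT the p65 2CS cells showed a like count. Here 35 of 78 nuclear members were called lower and 1 higher, where 17.9% of all genes were called lower, 13.4% higher and 31.2% in either direction, and the median log2 fold was -0.12 against 0.003 over all genes. The 35 were 13 of 36 in complex I, 5 of 9 in complex III, 9 of 14 in complex IV and 8 of 19 in complex V. Both comparisons use the same p65 2CS libraries, and 24 nuclear members were called lower in both, where 4.79% of all genes were. By CPM, 40 of the 78 had all p65 2CS libraries below all p65 WT libraries and 3 had them above, where 21.8% and 18.9% of all genes did so. For 27 of the 78, every p65 2CS library was below all 6 other libraries, where 7.33% of all genes were. With an adjusted p under 0.01 in place of 0.05, 23 nuclear members were lower than with p65 WT. Over all genes, 2431 were called higher and 3254 lower with p65 2CS than with p65 WT, and 3098 higher and 2820 lower when libraries were scaled by totals alone. Under that scaling 27 nuclear members were called lower.

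Between p65 WT and vector few nuclear members differed. Of the 78, 7 were called higher and 3 lower, where 16.4% of all genes were called higher, 12.5% lower and 28.8% in either direction, and the median log2 fold was -0.004 against -0.02 over all genes. By CPM, 8 members had all p65 WT libraries above all vector libraries and 15 had them below, where 20.3% and 20.1% of all genes did so. No nuclear member was called lower in complexes I, III or IV, and the 3 lower ones belong to complex V. The count of 3 depends on the scaling: it was 1 with median-of-ratios size factors and 14 with library totals alone. Over all genes, 2976 were called higher and 2268 lower with p65 WT, and 2561 higher and 3642 lower with totals alone. In all, 34 nuclear members were called in none of the 3 comparisons.

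**Figure D1:**
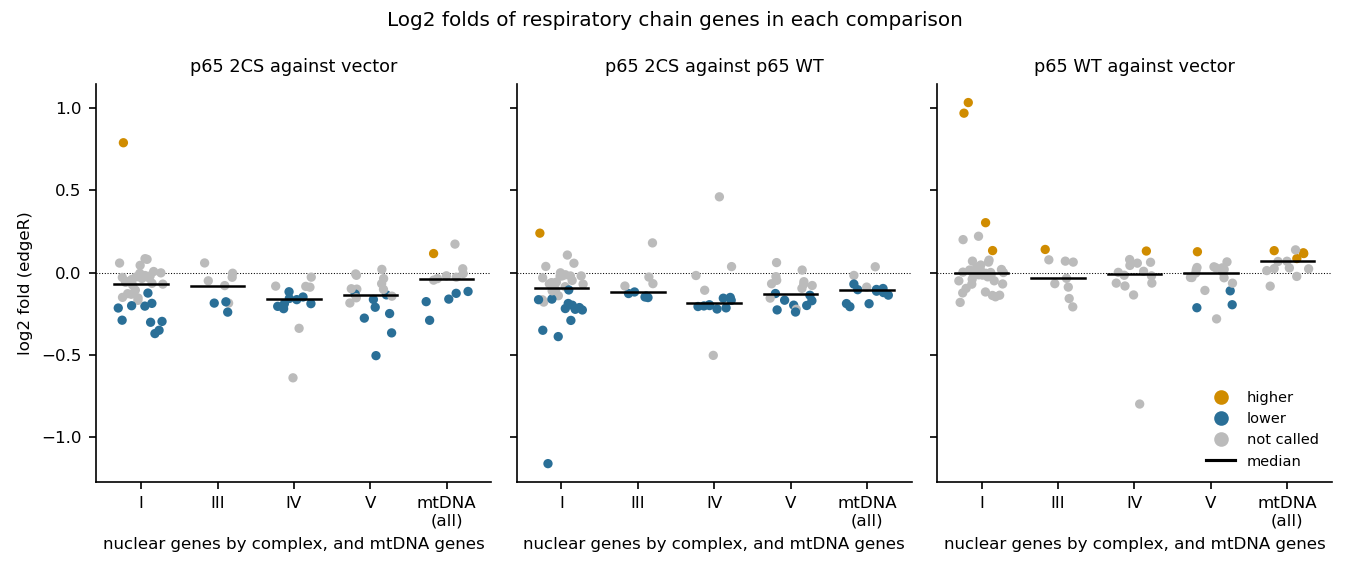
Log2 folds of the 91 tested members (vertical axis) in each of the 3 comparisons, with nuclear genes split by complex and the 13 mitochondrial genes in a last column. Each point is a gene, coloured by its call at an adjusted p under 0.05, and black bars are medians. In both comparisons of p65 2CS the nuclear points sit mostly below 0, with medians of -0.16 and -0.18 in complex IV, whereas p65 WT against vector centres near 0.

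The plot of folds by complex shows a shift of many genes by a little, not of a few by much: in the comparison of p65 2CS with vector, the largest fall among called members was 0.50 on the log2 scale. The map of levels by library shows the same genes in each library, and the first rows of complexes I, III, IV and V are low in all 3 p65 2CS columns.

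**Figure D2:**
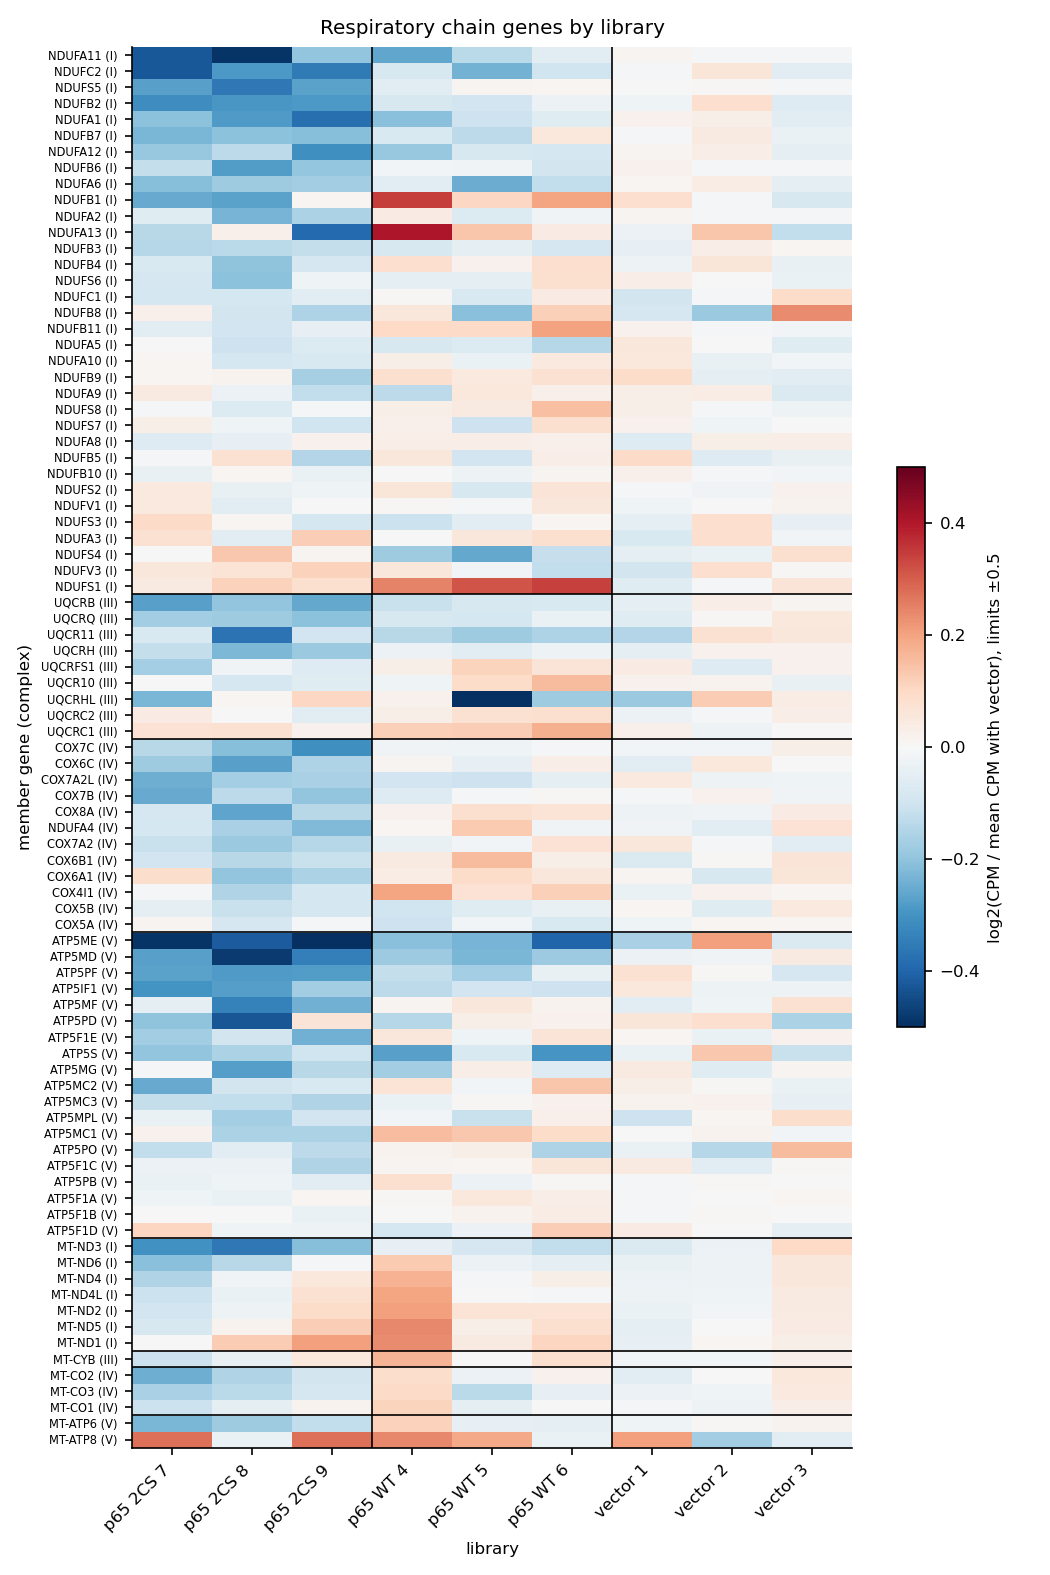
Map of 87 members with a mean of at least 5 CPM with vector (rows, ordered within each complex by the p65 2CS against vector fold, nuclear genes first) in the 9 libraries (columns). Colour is log2 of CPM over the mean CPM with vector, with limits at ±0.5. Blue rows at the top of each complex mark genes low in libraries 7, 8 and 9, and most MT rows are red in library 4.

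Complex I is built from a catalytic core, conserved from bacteria, and a shell of accessory subunits that assemble and stabilise it. The 7 nuclear core subunits and the 29 accessory ones differed in how many were called in the comparison of p65 2CS with vector: 0 of 7 core genes and 10 of 29 accessory genes were lower, a split whose own difference was not tested. NDUFS5, a small accessory subunit of the membrane arm, was at 78.9, 74.2 and 78.9 CPM with p65 2CS, 91.4, 96.0 and 95.8 CPM with p65 WT, and 95.1, 95.4 and 94.8 CPM with vector. Every p65 2CS library was below the other 6, and the level fell by 18.9% against vector (log2 fold -0.30 ± 0.04 SE, adjusted p = 2.32e-07) and by 18.2% against p65 WT (log2 fold -0.29 ± 0.04 SE, adjusted p = 2.99e-07).

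NDUFA11, which sits in the membrane arm at the contact with complex III in supercomplexes, was at 24.0, 22.9 and 28.0 CPM with p65 2CS, 26.9, 29.3 and 31.0 CPM with p65 WT and 32.4, 32.1 and 32.0 CPM with vector. The p65 2CS and vector libraries did not overlap (log2 fold -0.37 ± 0.07 SE, adjusted p = 0.000128), whereas 1 p65 2CS library was above 1 p65 WT library. NDUFC2, another membrane-arm subunit, was at 19.9, 21.9 and 20.9 CPM with p65 2CS, 25.2, 22.7 and 24.9 CPM with p65 WT and 26.5, 27.8 and 25.7 CPM with vector, and no p65 2CS library reached the other 6. The log2 fold was -0.35 ± 0.07 SE against vector (adjusted p = 0.00029). NDUFA11 shares 45.8% of its coding bases with AC024592.3, which had 0 counts, and NDUFC2 shares 86.8% with the read-through NDUFC2-KCTD14, which had 2. Against p65 WT, NDUFB1, a short subunit of the membrane arm, was at 13.7, 13.6 and 16.5 CPM with p65 2CS and at 20.8, 17.6 and 18.8 CPM with p65 WT. The groups did not overlap, with a log2 fold of -0.39 ± 0.09 SE (adjusted p = 0.000779). NDUFA13, an accessory subunit also called GRIM-19, was at 7.27, 8.15 and 6.11 CPM with p65 2CS and 10.6, 8.81 and 8.22 CPM with p65 WT (log2 fold -0.35 ± 0.13 SE, adjusted p = 0.0418). That call was lost when replicate 4 or 5 of p65 WT, or 7 or 9 of p65 2CS, was left out (adjusted p = 0.254, 0.0514, 0.0773 and 0.217), and 70.0% of the coding bases of NDUFA13 are shared with AC011448.1, which had 67 to 133 counts per library.

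NDUFS1, the large iron-sulfur subunit of the arm that oxidises NADH, had its highest level with p65 WT. It was at 96.1, 101 and 98.6 CPM with p65 2CS, 111, 116 and 118 CPM with p65 WT and 89.4, 92.7 and 97.4 CPM with vector. The 3 p65 WT libraries were the highest of the 9, with a rise of 23.3% against vector (log2 fold 0.30 ± 0.04 SE, adjusted p = 6.14e-08). With p65 2CS it was lower than p65 WT (log2 fold -0.22 ± 0.04 SE, adjusted p = 2.55e-05) but was not called against vector (adjusted p = 0.13). NDUFB11, an X-linked accessory subunit named here after its values were seen, was also highest with p65 WT. It was at 162, 157 and 163 CPM with p65 2CS, 180, 179 and 193 CPM with p65 WT and 171, 167 and 167 CPM with vector. Unlike those of NDUFS1, its p65 2CS libraries were the 3 lowest. The p65 WT libraries were again the 3 highest (p65 WT against vector: log2 fold 0.13 ± 0.03 SE, adjusted p = 0.00181). NDUFS4, an accessory subunit of the NADH-oxidising arm, was the nuclear member called higher with p65 2CS than with p65 WT, at 27.8, 30.5 and 28.1 CPM against 24.5, 23.3 and 25.7 CPM (log2 fold 0.24 ± 0.07 SE, adjusted p = 0.00775), and this call was lost without p65 2CS replicate 8 (adjusted p = 0.0727).

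The largest folds in complex I rest on very few counts. NDUFV2, a core iron-sulfur subunit, had 29, 29 and 21 counts with p65 2CS, 48, 44 and 47 with p65 WT and 29, 22 and 30 with vector. It was called higher with p65 WT than with vector (log2 fold 1.03 ± 0.26 SE, adjusted p = 0.00167) and lower with p65 2CS than with p65 WT (log2 fold -1.16 ± 0.26 SE, adjusted p = 0.000442). NDUFA7, an accessory subunit, had 32, 48 and 28 counts with p65 2CS, 37, 29 and 29 with p65 WT and 16, 20 and 22 with vector. It was called higher against vector with p65 2CS (log2 fold 0.79 ± 0.28 SE, adjusted p = 0.0387) and with p65 WT (log2 fold 0.97 ± 0.29 SE, adjusted p = 0.00864). Of the coding bases of NDUFV2, 91.7% also belong to exons of AP005263.1 on the same strand, and 100% of those of NDUFA7 belong to AC010323.1. AP005263.1 had 0 counts and AC010323.1 had 1 to 7 counts per library. Reads in shared bases may be split or dropped in counting, so the levels and folds of NDUFV2 and NDUFA7 are uncertain. The call of NDUFA7 with p65 2CS was lost when replicate 1 or 2 of vector, or 7 or 8 of p65 2CS, was left out (adjusted p of up to 0.143). The call of NDUFA7 with p65 WT was lost without p65 WT replicate 4 (adjusted p = 0.0551).

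In complex III the small subunits and the core proteins were counted apart, and the difference between them was not tested. Of the 5 small subunits 3 were lower with p65 2CS than with vector and 4 were lower than with p65 WT, while of the 2 core proteins and the Rieske protein 0 and 1 were. UQCRB, a ubiquinone-binding subunit, was at 59.8, 62.8 and 60.3 CPM with p65 2CS, 66.7, 68.3 and 68.5 CPM with p65 WT and 69.9, 73.7 and 72.7 CPM with vector. The 3 groups did not overlap, with a log2 fold of -0.24 ± 0.04 SE against vector (adjusted p = 7.4e-05) and -0.15 ± 0.05 SE against p65 WT (adjusted p = 0.00941). UQCRQ was at 87.5, 87.4 and 85.6 CPM with p65 2CS, 93.3, 92.9 and 96.4 CPM with p65 WT and 94.6, 99.2 and 102 CPM with vector, again with p65 2CS lowest. Its log2 fold against vector was -0.19 ± 0.04 SE (adjusted p = 0.000431). UQCRH, which helps cytochrome c dock, was at 167, 155 and 159 CPM with p65 2CS, 177, 175 and 178 CPM with p65 WT and 176, 184 and 184 CPM with vector. Here too the p65 2CS libraries were the 3 lowest, with a log2 fold of -0.18 ± 0.03 SE against vector (adjusted p = 6.41e-05).

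UQCRFS1, the Rieske iron-sulfur protein, was lower with p65 2CS than with p65 WT, at 131, 145 and 141 CPM against 150, 159 and 154 CPM (log2 fold -0.15 ± 0.04 SE, adjusted p = 0.00191), and was not called against vector, whose libraries were at 151, 141 and 149 CPM. UQCRC1, a core protein, was higher with p65 WT than with vector, at 143, 143 and 149 CPM against 134, 129 and 131 CPM (log2 fold 0.14 ± 0.03 SE, adjusted p = 0.00151). UQCRHL, a near-copy of UQCRH without introns whose reads cannot be cleanly parted from it, was at 5.39 to 8.42 CPM over the 9 libraries and passed no test. Cytochrome c1, encoded by CYC1 and outside the symbol rule, was also lower with p65 2CS, at 216, 224 and 222 CPM against 243, 251 and 258 CPM with p65 WT (adjusted p = 1.16e-05) and 245, 228 and 230 CPM with vector (adjusted p = 0.0424). The CYC1 call against vector was lost when vector replicate 1 or 3 or any single p65 2CS library was left out (adjusted p of up to 0.311, log2 fold -0.11 to -0.05).

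Complex IV had the highest share of nuclear members called lower with p65 2CS, 8 of 14 against vector and 9 of 14 against p65 WT, and all 14 had a negative fold against vector. Its nuclear subunits are small proteins around the mitochondrially encoded catalytic centre. COX7C, with a single membrane helix, was at 180, 171 and 160 CPM with p65 2CS, 196, 195 and 197 CPM with p65 WT and 196, 196 and 202 CPM with vector. Every p65 2CS library was below the other 6, and the level fell by 14.1% against vector (log2 fold -0.22 ± 0.03 SE, adjusted p = 3.51e-06) and by 13.1% against p65 WT (adjusted p = 8.35e-06). COX6C was at 51.1, 47.9 and 52.0 CPM with p65 2CS, 58.4, 56.2 and 59.2 CPM with p65 WT and 55.8, 60.0 and 57.7 CPM with vector. No p65 2CS library reached the others (log2 fold -0.21 ± 0.05 SE against vector, adjusted p = 0.00224).

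COX8A was at 96.3, 85.1 and 92.6 CPM with p65 2CS, 104, 108 and 107 CPM with p65 WT and 100, 101 and 105 CPM with vector. It was lower than with p65 WT (log2 fold -0.22 ± 0.04 SE, adjusted p = 4.97e-05) and than with vector (log2 fold -0.16 ± 0.04 SE, adjusted p = 0.00267), and 55.1% of its coding bases are shared with AP000721.1, which had 2 counts. The call against vector was lost without p65 2CS replicate 8, its lowest library (adjusted p = 0.0716). COX7A2L, which binds complex III to complex IV in supercomplexes, was at 54.8, 57.8 and 58.1 CPM with p65 2CS, 60.8, 60.4 and 62.9 CPM with p65 WT and 67.2, 63.8 and 64.0 CPM with vector. The 3 groups did not overlap (p65 2CS against vector: log2 fold -0.19 ± 0.05 SE, adjusted p = 0.00244). COX7B, COX7A2, COX6B1 and NDUFA4, the general forms of 4 isoform pairs, had log2 folds against vector of -0.19, -0.15, -0.12 and -0.16 and adjusted p of 0.00244, 0.0214, 0.0486 and 0.00917. The call of COX6B1 was lost without any 1 of 5 libraries, vector replicate 3 among them (adjusted p = 0.249), and that of COX7A2 without vector replicate 1 or p65 2CS replicate 8 (adjusted p = 0.128 and 0.113). The NDUFA4 call was lost without vector replicate 3 or p65 2CS replicate 9 (adjusted p = 0.0882 and 0.0632). COX6A1 was not called against vector (log2 fold -0.09, adjusted p = 0.296). COX4I1, the general form of the largest nuclear subunit, was higher with p65 WT than with vector (log2 fold 0.13 ± 0.03 SE, adjusted p = 0.00296) and lower with p65 2CS than with p65 WT (log2 fold -0.21 ± 0.03 SE, adjusted p = 3.27e-06), while p65 2CS and vector libraries overlapped.

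ATP synthase consists of a soluble F1 head, a membrane ring that turns, a peripheral stalk that holds the head still, and membrane subunits that shape the cristae. With p65 2CS against vector, 1 of 5 genes of the F1 head and its stalk was lower, and 1 of 4 genes of the peripheral stalk. Of the membrane accessory genes 3 of 5 were lower, and of the ring 2 of 3. Against p65 WT the counts in the same order were 1, 1, 2 and 3. These groups are small, and the difference between them was not tested. ATP5F1B was at 959, 960 and 937 CPM with p65 2CS, 956, 968 and 981 CPM with p65 WT and 953, 963 and 957 CPM with vector, with a log2 fold of -0.01 ± 0.02 SE for p65 2CS against vector (adjusted p = 0.841). The head gene that was lower was ATP5F1E, the epsilon subunit and, with 153 coding bases, the shortest member tested, named after its values were seen. It was at 62.8, 66.5 and 60.0 CPM with p65 2CS, 73.6, 69.9 and 74.1 CPM with p65 WT and 71.4, 69.3 and 71.9 CPM with vector. Every p65 2CS library was below all p65 WT and vector libraries, which overlapped each other (p65 2CS against vector: log2 fold -0.16 ± 0.05 SE, adjusted p = 0.00772).

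ATP5MD, a small membrane subunit known as DAPIT, was at 45.9, 39.8 and 43.7 CPM with p65 2CS, 48.9, 47.3 and 48.8 CPM with p65 WT and 54.3, 54.7 and 57.2 CPM with vector. The 3 groups did not overlap, and ATP5MD was lower in each comparison: by 22.4% with p65 2CS against vector (log2 fold -0.37 ± 0.05 SE, adjusted p = 2.06e-06), and with log2 folds of -0.17 ± 0.06 SE with p65 2CS against p65 WT (adjusted p = 0.0183) and -0.20 ± 0.06 SE with p65 WT against vector (adjusted p = 0.00591). ATP5IF1, the peptide that inhibits ATP synthase when it runs backwards, had the same order. It was at 74.2, 75.4 and 80.8 CPM with p65 2CS, 83.3, 85.3 and 84.9 CPM with p65 WT and 94.5, 89.7 and 89.5 CPM with vector, and the groups did not overlap (p65 2CS against vector: log2 fold -0.25 ± 0.04 SE, adjusted p = 1.5e-05). Its call between p65 WT and vector (log2 fold -0.11 ± 0.04 SE, adjusted p = 0.0454) was lost without any 1 of the 6 libraries compared, with an adjusted p of 0.0507 to 0.2.

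ATP5ME, a membrane subunit, had the lowest fold of complex V at a low level. It was at 7.74, 8.15 and 7.06 CPM with p65 2CS, 9.40, 9.25 and 8.22 CPM with p65 WT and 9.71, 12.5 and 10.3 CPM with vector, with p65 2CS lowest. The log2 fold of p65 2CS against vector was -0.50 ± 0.12 SE (adjusted p = 0.00155). Of its coding bases 44.0% lie under MYL5 on the other strand, and the strand setting of the counting is unknown here. ATP5PF, part of the peripheral stalk, was at 41.4, 41.0 and 41.1 CPM with p65 2CS, 45.9, 44.3 and 48.5 CPM with p65 WT and 52.5, 50.02 and 47.0 CPM with vector. The p65 2CS libraries were the 3 lowest (log2 fold -0.28 ± 0.06 SE against vector, adjusted p = 0.00021). ATP5MF, a membrane subunit, was at 81.8, 66.9 and 71.5 CPM with p65 2CS and 85.3, 87.9 and 85.5 CPM with p65 WT (log2 fold -0.24 ± 0.05 SE, adjusted p = 0.000253). ATP5S, known as coupling factor B, was lower with p65 WT than with vector, at 19.3, 22.1 and 19.0 CPM against 22.8, 25.5 and 21.6 CPM (log2 fold -0.21 ± 0.08 SE, adjusted p = 0.0432), with overlapping libraries. That call was lost when replicate 1 or 2 of vector, or 4 or 6 of p65 WT, was left out (adjusted p = 0.0568 to 0.277).

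The ring of ATP synthase is made of a protein that 3 nuclear genes encode with the same mature sequence and different import signals. ATP5MC2 was lower with p65 2CS, at 215, 240 and 242 CPM, against 268, 253 and 281 CPM with p65 WT (log2 fold -0.20 ± 0.04 SE, adjusted p = 2.52e-05) and 260, 256 and 250 CPM with vector (adjusted p = 0.00436). ATP5MC3, at 120, 119 and 117 CPM with p65 2CS, 127, 130 and 132 CPM with p65 WT and 131, 132 and 126 CPM with vector, was lower against both (adjusted p = 0.00419 and 0.00423). ATP5MC1 was at 70.6, 62.5 and 62.4 CPM with p65 2CS, 77.5, 76.4 and 74.2 CPM with p65 WT and 69.5, 70.5 and 69.0 CPM with vector. The p65 WT libraries were the 3 highest, with a log2 fold of -0.23 ± 0.05 SE for p65 2CS against p65 WT (adjusted p = 0.000215) and of 0.13 ± 0.05 SE for p65 WT against vector (adjusted p = 0.0421). The call of ATP5MC1 between p65 WT and vector was lost without any single vector library and when replicate 4 or 5 of p65 WT was left out (adjusted p = 0.0717 to 0.128).

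The 13 mitochondrial genes lie close together on a small circular genome and are copied as long transcripts from both strands, then cut apart, so their levels share a source. With p65 2CS, 5 of the 13 were lower than with vector and 1 was higher, and 10 were lower than with p65 WT. With p65 WT, 4 were higher than with vector and 0 were lower; those 4 were MT-ND1, MT-ND2, MT-ND5 and MT-CYB, with log2 folds of 0.13, 0.12, 0.12 and 0.08. The background shares for these comparisons are those given for the nuclear genes. Median log2 folds of the 13 were -0.04 for p65 2CS against vector, -0.10 for p65 2CS against p65 WT and 0.07 for p65 WT against vector, the last being -0.0015 without p65 WT replicate 4.

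A pair of libraries carried much of the spread. Library 4 (p65 WT) was the highest of the 9 for 11 of the 13 genes and library 7 (p65 2CS) the lowest for 10 of 13. Without p65 WT replicate 4, no mitochondrial gene was called higher with p65 WT than with vector, MT-CO3 and MT-ND3 were called lower, and 3 in place of 10 were lower with p65 2CS than with p65 WT. Without p65 2CS replicate 7 that last count was also 3, and with DESeq2 in place of edgeR it was 3 again. In all 3 of these alternatives the 3 genes were MT-ND3, MT-CO2 and MT-ATP6. DESeq2 called none of the 13 higher with p65 WT than with vector, and without vector replicate 1 edgeR called 2.

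MT-ND3, a complex I subunit at the junction of its arms, was at 295, 284 and 314 CPM with p65 2CS, 354, 343 and 334 CPM with p65 WT and 346, 356 and 390 CPM with vector. The p65 2CS libraries were the 3 lowest of the 9, with a fall of 18.2% against vector (log2 fold -0.29 ± 0.03 SE, adjusted p = 1.87e-08) and 13.4% against p65 WT (log2 fold -0.21 ± 0.03 SE, adjusted p = 7.88e-06). MT-CO2, which receives electrons from cytochrome c, was at 2811, 2996 and 3125 CPM with p65 2CS, 3538, 3262 and 3383 CPM with p65 WT and 3203, 3331 and 3456 CPM with vector. Again the p65 2CS libraries lay below the rest (log2 fold -0.16 ± 0.03 SE against vector, adjusted p = 3.8e-05, and -0.19 ± 0.03 SE against p65 WT, adjusted p = 1.2e-06). MT-ATP6, the channel subunit of ATP synthase, was at 1972, 2040 and 2118 CPM with p65 2CS, 2498, 2247 and 2240 CPM with p65 WT and 2273, 2317 and 2338 CPM with vector, with the same order (log2 fold -0.18 ± 0.03 SE against vector, adjusted p = 7.56e-06, and -0.19 ± 0.03 SE against p65 WT, adjusted p = 1.14e-06). These 3 calls held in both comparisons under every alternative tried, with an adjusted p of at most 0.0188.

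The other mitochondrial genes had smaller or less stable differences. MT-CO3 was at 3116, 3171 and 3287 CPM with p65 2CS, 3722, 3174 and 3384 CPM with p65 WT and 3416, 3430 and 3604 CPM with vector (adjusted p = 0.00228 against vector, 0.168 with DESeq2). MT-ND6, the complex I subunit read from the other strand of the genome, was at 394, 413 and 453 CPM with p65 2CS, 499, 446 and 442 CPM with p65 WT and 444, 448 and 474 CPM with vector. The groups overlapped, and the call against vector (adjusted p = 0.0198) was lost without vector replicate 3, without p65 2CS replicate 7 or 8 and with DESeq2 (adjusted p = 0.148, 0.199, 0.0943 and 0.317). MT-ND1, first in the order along the genome, was the gene called higher with p65 2CS than with vector, at 1385, 1509 and 1595 CPM against 1344, 1392 and 1410 CPM (log2 fold 0.12 ± 0.03 SE, adjusted p = 0.0115). That call was lost without p65 2CS replicate 9, without vector replicate 1 and with DESeq2 (adjusted p = 0.165, 0.0859 and 0.204). With p65 WT the gene was at 1629, 1427 and 1489 CPM. MT-CO1 was at 11641, 12126 and 12693 CPM with p65 2CS, 13569, 12174 and 12532 CPM with p65 WT and 12458, 12339 and 12846 CPM with vector, so all 3 groups overlapped. MT-ND2, MT-ND4, MT-ND5, MT-ND4L and MT-CYB also had overlapping p65 2CS and vector libraries, and none of them was called between those groups.

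**Figure D3:**
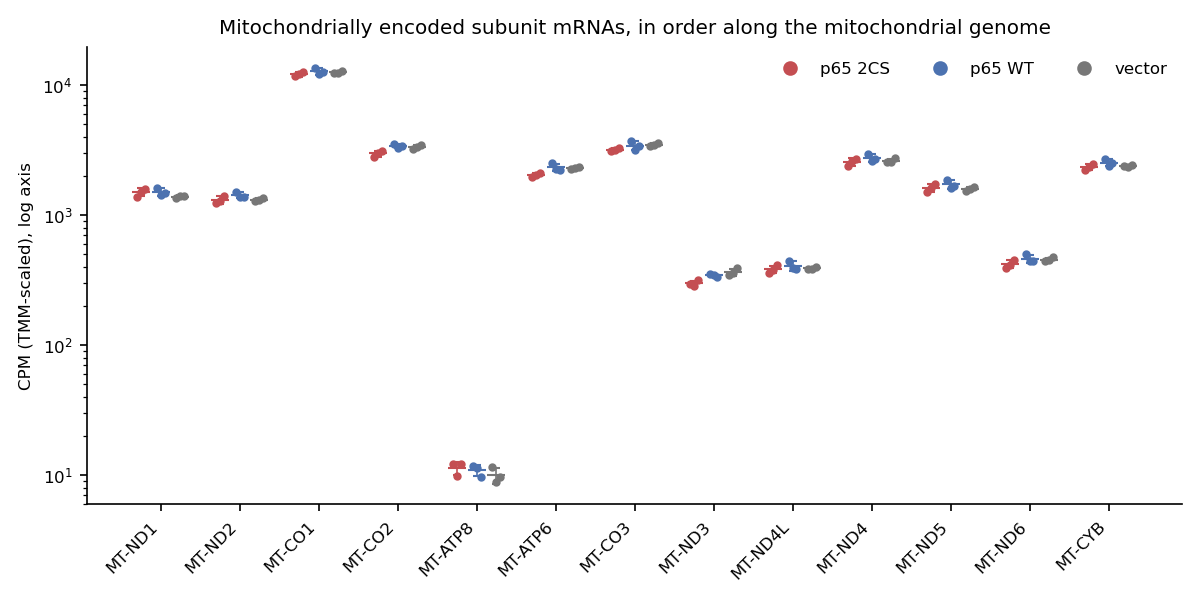
CPM of the 13 mitochondrially encoded subunit genes (log axis), in their order along the mitochondrial genome, with p65 2CS (red), p65 WT (blue) and vector (grey). Points are the 3 libraries of a group, the long bar is their mean and the short bars are 1 SD. MT-ND3, MT-CO2 and MT-ATP6 have p65 2CS points below both other groups, and MT-ATP8 stands at about 10 CPM.

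The plot of mitochondrial genes by library also shows MT-ATP8 far below its neighbours, at 12.1, 9.78 and 12.1 CPM with p65 2CS, 11.8, 11.4 and 9.77 CPM with p65 WT and 11.5, 8.86 and 9.62 CPM with vector, with no call. MT-ATP8 and MT-ATP6 are cut out as 1 transcript and their reading frames overlap by 46 bases on GRCh38. The overlap at chrMT:8527-8572, plus strand, is shown with the 30 bases before it because those 46 of the 207 bases of MT-ATP8 can also be counted for MT-ATP6. Capitals mark the shared bases, from the start codon of MT-ATP6 to the last annotated base of MT-ATP8 (GENCODE 29 transcripts).
MT-ATP8 with MT-ATP6, chrMT:8497-8572: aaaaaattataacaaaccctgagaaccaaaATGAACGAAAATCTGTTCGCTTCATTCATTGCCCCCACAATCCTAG
MT-ND4L and MT-ND4 overlap in the same way by 7 bases, and MT-ND4L, at 361, 380 and 410 CPM with p65 2CS, 447, 390 and 388 CPM with p65 WT and 383, 383 and 402 CPM with vector, was not short of counts. Reads that span both frames of a joint transcript cannot be given to a single gene, so the level of MT-ATP8 is uncertain. Nuclear pseudogenes of mitochondrial genes, which can take reads from near-identical copies, held 0.764% as many counts as the 13 genes themselves, led by MTATP6P1, MTND2P28 and MTCO1P12.

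Most of the lower nuclear members had short coding sequences. Coding length here is the longest annotated coding sequence of a gene, and its bins were chosen after the values were seen. In the comparison of p65 2CS with vector, 25 of 42 nuclear members with under 450 coding bases were lower, 4 of 20 with at least 450 and under 750, 0 of 13 with at least 750 and under 1500, and 0 of 3 with 1500 or more. The same gradient ran through the other nuclear protein-coding genes at a lower level: 30.6% of 769 short genes, 21.3% of 1730, 13.4% of 4872 and 8.48% of 6863 were called lower in the same 4 bins. Among other genes with a CPM between the quartiles of the nuclear members and with no cytosolic ribosomal protein, 43.6% of 211 genes under 450 bases were called lower, with a median log2 fold of -0.12, against -0.17 in the short nuclear members. Across genes, Spearman's rho between coding length and log2 fold was 0.59 over 78 nuclear members and 0.24 over 14234 other genes. Genes are not independent replicates, and rho is given as a description.

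**Figure D4:**
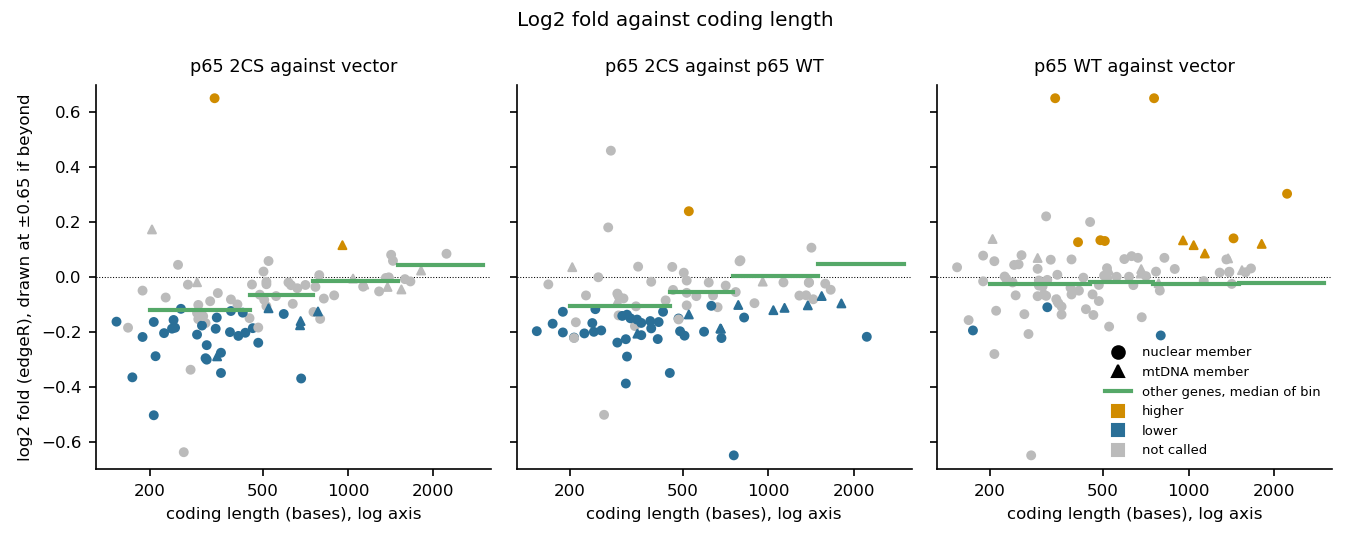
Log2 fold (vertical axis, drawn at ±0.65 if beyond) against coding length in bases (log axis) for nuclear members (circles) and mitochondrial members (triangles), coloured by call, in the 3 comparisons. Green bars give the median of the other nuclear protein-coding genes in each length bin. With p65 2CS against vector the members under 450 bases have a median of -0.17 and the green bars step up from -0.12 to 0.04, whereas with p65 WT against vector they stay near -0.02.

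The plot of fold against coding length also holds the core and accessory genes. In complex I the 7 nuclear core subunits had 630 to 2223 coding bases and the 29 accessory ones 210 to 1419, so these ranges overlap. In complex III the 5 small subunits had 168 to 483 coding bases, and the core and Rieske proteins 822 to 1440. With p65 2CS against p65 WT, 25 of 42 short members, then 7 of 20, 2 of 13 and 1 of 3 in the longer bins were lower. Of the other nuclear protein-coding genes, 28.2, 25.7, 18.8 and 17.2% were called lower in the same bins. Among the 211 other genes under 450 bases in the same CPM range, 38.4% were. In this comparison rho was 0.35 over the 78 and 0.16 over the other genes. With p65 WT against vector, rho was 0.28 over the members and 0.04 over the other genes. Cytosolic ribosomal proteins, which are also short, were lower with p65 2CS than with vector in 62 of 80 tested. The part of transcript length in the fall of the respiratory chain genes was not tested.

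Overlap with other annotated genes was counted as well. Of the 78 tested nuclear members, 18 share at least 20% of their coding bases with exons of another gene, and 6 of these 18 were lower and 1 higher with p65 2CS than with vector. Among the 60 that do not, 23 were lower and 0 higher with p65 2CS than with vector, 27 were lower and 1 higher with p65 2CS than with p65 WT, and 5 were higher and 2 lower with p65 WT than with vector. Pseudogenes of nuclear members held 0.189% as many counts as the members.

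Promoters were compared by their letters, since many respiratory chain genes are known to be driven by NRF1 and by ETS factors such as GABPA. RefSeq promoters on GRCh38.p14, taken from 250 bases before to 50 bases after the start, were matched for 65 of the 86 nuclear members, 61 of them tested. The NRF1 letters, GCGC then any base then TGCGC, stood on either strand in 13 of 61 (21.3%), against 5.78% of all 35116 promoters, and their palindrome, with A as the free base, in 3 of 61 (4.92%) against 1.24%. The ETS letters CCGGAAGT stood in 9 of 61 (14.8%) against 4.14%, and the NF-kB letters, GGG then any 2 bases then TTTCC, in 2 of 61 (3.28%) against 1.91%. Of the 21 promoters of members lower with p65 2CS than with vector, 4 held the NRF1 letters, 4 the ETS letters and 0 the NF-kB letters, and of the 39 not called between those groups 9, 5 and 2 did. These matches are descriptions of letters in a window, not of bound sites.

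NDUFB4 is shown because it holds the NRF1 letters at 3 places and UQCRH because it holds the ETS letters, both among members that were lower with p65 2CS in both comparisons, and ATP5MC1 because it holds the NF-kB letters and was higher with p65 WT. Of the 7 matched promoters of members higher with p65 WT than with vector, only 1 holds the NF-kB letters. UQCRC2 holds them too and was not called in that comparison. The ATP5MC1 call was unstable, as given with the ring. NDUFB4, an accessory subunit of complex I named for its promoter, was at 67.0, 61.6 and 66.7 CPM with p65 2CS, 75.01, 71.8 and 74.99 CPM with p65 WT and 69.4, 73.8 and 69.0 CPM with vector (log2 fold -0.12 ± 0.05 SE against vector, adjusted p = 0.0452). Capitals mark the letters of the motifs on either strand, and all 3 promoters read 5′ to 3′ on the plus strand.
NDUFB4, chr3:120596086-120596385: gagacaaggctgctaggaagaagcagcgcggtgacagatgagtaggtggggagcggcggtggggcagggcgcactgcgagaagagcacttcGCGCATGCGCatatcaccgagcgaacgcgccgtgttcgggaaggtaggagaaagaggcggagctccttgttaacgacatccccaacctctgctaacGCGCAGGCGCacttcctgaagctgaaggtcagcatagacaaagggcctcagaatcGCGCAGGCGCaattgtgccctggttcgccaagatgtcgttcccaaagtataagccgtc
UQCRH, chr1:46303448-46303747: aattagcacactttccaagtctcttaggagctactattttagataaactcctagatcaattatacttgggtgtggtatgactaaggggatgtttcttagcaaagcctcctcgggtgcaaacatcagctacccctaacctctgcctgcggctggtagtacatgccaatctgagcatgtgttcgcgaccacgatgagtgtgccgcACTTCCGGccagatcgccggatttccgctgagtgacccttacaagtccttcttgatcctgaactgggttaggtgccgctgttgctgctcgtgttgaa
ATP5MC1, chr17:48892537-48892836: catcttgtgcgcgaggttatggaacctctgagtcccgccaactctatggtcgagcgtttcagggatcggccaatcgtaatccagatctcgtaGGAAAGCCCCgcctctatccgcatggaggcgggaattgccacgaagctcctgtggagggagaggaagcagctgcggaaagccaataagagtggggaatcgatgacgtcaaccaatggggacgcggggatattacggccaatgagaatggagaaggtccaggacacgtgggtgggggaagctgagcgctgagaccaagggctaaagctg
In NDUFB4 the first match is the palindrome and the other two match on the reverse strand. In UQCRH and in ATP5MC1 the single match lies on the reverse strand too.

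Related pathways were counted in the same way, beside the shares of all genes given with the nuclear members. Those were 12.1% higher and 11.4% lower with p65 2CS against vector, 13.4% and 17.9% with p65 2CS against p65 WT, and 16.4% and 12.5% with p65 WT against vector. Of 44 tested assembly factors, which build the complexes without staying in them, 4 were higher and 4 lower with p65 2CS than with vector, 7 were higher and 5 lower than with p65 WT, and 2 were higher and 5 lower with p65 WT than with vector. These are 9.09% and 9.09%, 15.9% and 11.4%, and 4.55% and 11.4%, near or under the shares of all genes. COX14, which couples MT-CO1 synthesis to assembly, was at 19.0, 18.4 and 18.7 CPM with p65 2CS, 22.5, 23.9 and 25.2 CPM with p65 WT and 22.7, 26.5 and 23.9 CPM with vector. All p65 2CS libraries were below the others (log2 fold -0.39 ± 0.08 SE against vector, adjusted p = 0.000157). COX17, a copper chaperone, also fell against vector (log2 fold -0.24 ± 0.08 SE, adjusted p = 0.0208), and NUBPL and COX10, which serve iron-sulfur insertion and heme A synthesis, were higher (log2 folds 0.25 and 0.23, adjusted p = 0.0437 and 0.0368). The NUBPL and COX10 calls were lost without any single vector library, and also when replicate 8 or 9 (NUBPL) or 7 or 8 (COX10) of p65 2CS was left out, with an adjusted p of up to 0.133 and 0.124. The COX17 call was lost without vector replicate 3 or p65 2CS replicate 8 (adjusted p of up to 0.0991). COA1 was higher with p65 WT, at 66.9, 67.6 and 69.5 CPM, against 56.9, 58.1 and 59.7 CPM with vector (log2 fold 0.22 ± 0.05 SE, adjusted p = 0.00029). So was NDUFAF3 (log2 fold 0.15, adjusted p = 0.0281), and COA7 and NDUFAF6 were lower (log2 folds -0.21 and -0.24, adjusted p = 0.000276 and 0.0225). The NDUFAF3 and NDUFAF6 calls were lost when replicate 1 or 2 of vector, or 4 of p65 WT, was left out, and also without replicate 6 (NDUFAF3) or 5 (NDUFAF6) of p65 WT (adjusted p of up to 0.159 and 0.112). Between the p65 forms PET117 and NUBPL were the highest called (log2 folds 0.65 and 0.38) and COX14 and COA1 the lowest (-0.36 and -0.23). PET117 lost its call when replicate 4 or 5 of p65 WT, or 8 or 9 of p65 2CS, was left out (adjusted p of up to 0.104).

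Among 22 genes of complex II and the electron carriers, 6 were higher and 2 lower with p65 2CS than with vector, 6 were higher and 4 lower than with p65 WT, and 3 were higher and 0 lower with p65 WT than with vector. The higher shares with p65 2CS, 27.3% in both comparisons, were above those of all genes, while the lower shares, 9.09% and 18.2%, were near them. The 2 lower ones were CYC1, described with complex III, and cytochrome c (CYCS). CYCS was at 156, 154 and 156 CPM with p65 2CS, 174, 166 and 161 CPM with p65 WT and 167, 176 and 176 CPM with vector (log2 fold -0.16 ± 0.03 SE against vector, adjusted p = 0.000448). PDSS2 and COQ5, enzymes of coenzyme Q synthesis, were higher with p65 2CS than with vector (log2 folds 0.30 and 0.24, adjusted p = 0.00762 and 0.0132). PDSS2 lost this call without p65 2CS replicate 8 (adjusted p = 0.0822), and COQ5 without vector replicate 1 or p65 2CS replicate 7 (adjusted p = 0.123 and 0.0596). ETFA, which brings electrons from fatty acid oxidation, was at 130, 134 and 131 CPM with p65 2CS, 151, 151 and 145 CPM with p65 WT and 129, 118 and 121 CPM with vector. The p65 WT libraries were the 3 highest (p65 WT against vector: log2 fold 0.28 ± 0.04 SE, adjusted p = 4.96e-08). GPD2, which feeds electrons from glycerol phosphate, was higher with p65 2CS than with p65 WT (log2 fold 0.30, adjusted p = 0.000247), and COQ8A was higher with p65 WT than with vector (log2 fold 0.13, adjusted p = 0.00365, and 0.0528 without p65 WT replicate 6).

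Of 27 genes that copy, transcribe or process mitochondrial DNA and RNA, 0 were higher and 2 lower with p65 2CS than with vector, 7 were higher and 2 lower than with p65 WT, and 2 were higher and 6 lower with p65 WT than with vector. These are 0 and 7.41%, 25.9% and 7.41%, and 7.41% and 22.2%, so that the higher share against p65 WT and the lower share of p65 WT against vector were above those of all genes. The 2 lower ones were SSBP1, the single-strand binding protein, and TRMT10C, which trims transfer RNAs (log2 folds -0.18 and -0.16, adjusted p = 0.00303 and 0.0461). The TRMT10C call was lost without any 1 of the 6 libraries compared (adjusted p of up to 0.221, log2 fold -0.18 to -0.11). FASTKD1 and FASTKD5, relatives that act on mitochondrial RNA, differed in direction with p65 WT against vector: FASTKD1 was lower (log2 fold -0.27 ± 0.08 SE, adjusted p = 0.00639) and FASTKD5 higher (log2 fold 0.23 ± 0.06 SE, adjusted p = 0.00601). TOP1MT was higher and POLG2 lower in that comparison (log2 folds 0.15 and -0.23, adjusted p = 0.0108 and 0.0334). TOP1MT lost this call without p65 WT replicate 4 (adjusted p = 0.0565), and POLG2 when replicate 1 or 2 of vector, or 4 or 5 of p65 WT, was left out (adjusted p of up to 0.177). SUPV3L1, a helicase of RNA decay, was higher with p65 2CS than with p65 WT (log2 fold 0.18, adjusted p = 0.0018).

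Of 17 nuclear regulators of respiration, 5 were higher and 2 lower with p65 2CS than with vector, 8 were higher and 3 lower than with p65 WT, and 4 were higher and 4 lower with p65 WT than with vector. The lower shares with p65 2CS, 11.8% and 17.6%, were near those of all genes, while the higher shares, 29.4% and 47.1%, were above them, as were both shares of 23.5% with p65 WT. PPARGC1A, the coactivator PGC-1alpha, was at 4.42, 5.33 and 5.32 CPM with p65 2CS, 3.22, 2.60 and 2.29 CPM with p65 WT and 3.84, 5.48 and 3.98 CPM with vector. All p65 WT libraries were below the other 6 (p65 WT against vector: log2 fold -0.72 ± 0.20 SE, adjusted p = 0.0042; p65 2CS against p65 WT: log2 fold 0.90 ± 0.19 SE, adjusted p = 0.000278). Its call between p65 WT and vector was lost without vector replicate 2 (adjusted p = 0.0639). ESRRA, a nuclear receptor that works with it, was lower with p65 WT than with vector (log2 fold -0.35 ± 0.07 SE, adjusted p = 4.94e-05), while its relative ESRRB was higher, at 6.50, 7.48 and 9.03 CPM against 4.38, 3.87 and 4.86 CPM (log2 fold 0.82 ± 0.16 SE, adjusted p = 5.18e-05). GABPB1 and GABPB2, partners of GABPA, had log2 folds against vector of 0.25 and 0.27 with p65 2CS (adjusted p = 0.00849 and 0.00348), and GABPB1 of 0.34 with p65 WT (adjusted p = 0.000196). EPAS1, the hypoxia factor HIF-2alpha, and CHCHD2 were lower with p65 2CS than with vector (log2 folds -0.28 and -0.11, adjusted p = 0.000308 and 0.00154). PERM1, a muscle regulator of the same pathway, was higher with p65 2CS than with p65 WT (log2 fold 0.94, adjusted p = 0.0177). PERM1 did not pass when replicate 5 of p65 WT or 7 of p65 2CS was left out (adjusted p of up to 0.064).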

How the data were processed

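Per the labels' protocols, poly-A RNA was enriched before library preparation. The submitters' processing notes name the aligner HISAT2 2.0.5. The tool that counted reads, its use of strand and the build aligned to are not given in the sources at hand. The values as deposited are whole read counts for each gene, not normalized by the authors. Identifiers, positions and symbols of all 58735 genes equalled GENCODE 29, so positions are on GRCh38, and the deposited gene length equalled the union of exons.

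From these counts, edgeR 4.0.16 (R 4.3.3) kept 18195 genes by filterByExpr and scaled libraries by TMM. A single fit of the 9 libraries, with a mean per group and no block, gave the quasi-likelihood F tests. Calls are at a Benjamini-Hochberg adjusted p under 0.05 over all genes tested, and SE is that of the log2 fold. The script was tested on simulated data. CPM use the TMM-scaled totals, and TPM the deposited lengths. Library totals were 17146134 to 25068515 with p65 2CS, 15989601 to 16507689 with p65 WT and 17923114 to 20162267 with vector. Within groups, pairs of libraries differed beyond sampling noise (chi-square per degree of freedom 1.88 to 2.53), so none was counted as a repeat.

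Named genes were RELA, the mitochondrial members, up to 3 called members with the highest and 3 with the lowest fold per complex and comparison, isoform pairs, the highest and lowest member per complex, and up to 2 called genes per direction of each pathway list. Others were named after their values were seen (NDUFB11, NDUFB4, ATP5F1E and ATP5MC3). Subunit roles and length bins were also chosen with values in view. The members and lists were chosen with earlier results of these data known. The symbols PRORP and FASTKD4 of the mitochondrial DNA expression list were not used here. Alternatives were other scalings, no low-count filter, DESeq2 1.42.0, fits of the compared groups alone, a stricter threshold and leaving out each library. Not every called gene of the pathway lists is reported here.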

Additional observations from a re-analysis of the deposited data

How the results depend on the processing

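No paired analysis was possible because the groups share no replicate number. The lower nuclear members with p65 2CS kept their count within 1.5 times under every alternative against vector (24 to 30 when 1 library was left out), and against p65 WT it was 25 to 35 without 1 library and 23 at an adjusted p under 0.01. Small counts moved, and where not stated the cause was not tested. Nuclear members lower with p65 WT than with vector (3) were 14 with totals alone, 1 with median-of-ratios size factors, nuclear TMM, no filter, DESeq2, the compared groups alone or the stricter threshold, and 1 to 4 without 1 library. The nuclear member higher with p65 2CS than with vector was 0 with no filter, DESeq2 or the stricter threshold and 0 to 1 without 1 library, and that higher than with p65 WT 0 to 1. Mitochondrial members higher with p65 WT than with vector (4) were 1 with totals, 0 with DESeq2 and 0 to 5 without 1 library, and those lower (0) were 1 with totals and 0 to 2. Those lower with p65 2CS than with p65 WT (10) were 6 with totals, 3 with DESeq2 and 3 to 11, those lower than with vector (5) were 3 with DESeq2, and the one higher was 0 with DESeq2 or the stricter threshold and 0 to 1. Folds that changed sign all belonged to comparisons in which the gene was not called. With totals alone the log2 folds of p65 WT against vector were COX7A2 -0.035, MT-ATP6 -0.031, MT-CO1 -0.019, MT-CO2 -0.015, MT-ND6 -0.021, and of p65 2CS against p65 WT MT-ND1 0.010. MT-ND2 with p65 2CS against vector was 0.0029 with median-of-ratios size factors and 0.0018 with DESeq2. Without 1 library, p65 WT against vector ranged over COX6B2 -0.28 to 0.12, COX7A2 -0.027 to 0.036, COX7B -0.034 to 0.00090, MT-ATP6 -0.042 to 0.038, MT-CO1 -0.022 to 0.056, MT-CO2 -0.0029 to 0.055, MT-CO3 -0.087 to 0.028, MT-ND4L -0.0015 to 0.10, MT-ND6 -0.036 to 0.054, NDUFA4 -0.0036 to 0.078. Without 1 library, p65 2CS against vector ranged over MT-CYB -0.070 to 0.0079, MT-ND2 -0.059 to 0.035, MT-ND4 -0.083 to 0.016, MT-ND4L -0.069 to 0.020, MT-ND5 -0.030 to 0.070. Without 1 library, p65 2CS against p65 WT ranged over MT-ATP8 -0.045 to 0.14, MT-ND1 -0.062 to 0.037. Depth limits NDUFV2, NDUFA7, COX6B2 and NDUFA4L2, which rest on fewer than 50 counts in each library.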

Other observations

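The citric acid cycle supplies NADH to complex I. Of 18 tested genes, 2 were higher and 0 lower with p65 2CS than with vector, 2 were higher and 2 lower with p65 2CS than with p65 WT, and 1 was higher and 0 lower with p65 WT than with vector. These are 11.1% and 0, 11.1% and 11.1%, and 5.56% and 0, all under the shares of all genes, which were 12.1% and 11.4%, 13.4% and 17.9%, and 16.4% and 12.5%. DLST, part of the oxoglutarate dehydrogenase complex, was at 118, 109 and 115 CPM with p65 2CS, 107, 102 and 107 CPM with p65 WT and 104, 105 and 102 CPM with vector (log2 fold 0.13 ± 0.04 SE against vector, adjusted p = 0.00894, edgeR quasi-likelihood test, and 0.0705 without p65 2CS replicate 7). Between the p65 forms SUCLA2 was higher (log2 fold 0.20, adjusted p = 0.0124) and IDH2 and MDH2 were lower (log2 folds -0.16 and -0.11, adjusted p = 0.0158 and 0.00317). SUCLA2 lost its call without p65 WT replicate 5 (adjusted p = 0.101), IDH2 without p65 WT replicate 6 or p65 2CS replicate 9 (adjusted p = 0.262 and 0.11), and MDH2 without p65 WT replicate 6 (adjusted p = 0.0585). Over the fits without 1 library their log2 folds reached -0.08 for IDH2 and -0.07 for MDH2.

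The mitochondrial ribosome makes the mitochondrially encoded subunits. Of 77 tested genes with MRPL or MRPS symbols, 10 were higher and 13 lower with p65 2CS than with vector, 15 were higher and 7 lower than with p65 WT, and 5 were higher and 9 lower with p65 WT than with vector. As shares these are 13.0% and 16.9%, 19.5% and 9.09%, and 6.49% and 11.7%, against the shares of all genes just given. Their median log2 folds were -0.02, -0.02 and -0.03 in these comparisons.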
